A study of Mus musculus with 3 samples.

Results

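Cathepsins are proteases that digest proteins mainly in lysosomes, and their probes were compared between the sorted cell fractions of the embryonic mouse kidney. Members were the probes whose platform gene symbol is Cts followed by 1 letter and that had a value on every array, which held for 6 of 18 cathepsin probes (33.3%), 1 per gene. Across the array, 4399 of 21819 gene features (20.2%) had a value on all 3 arrays. The 12 other cathepsins had no value on any array, and their levels were not analysed here.

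Kidneys came from HoxB7-GFP transgenic mouse embryos at 15.5 days post coitum (dpc), with the sexes pooled, and flow sorting split their cells into GFP+ and GFP- cells. The HoxB7 promoter marks the ureteric tree, the branching epithelium that becomes the collecting ducts. The GFP- fraction holds every other kidney cell, so that nephron progenitors, stroma, vessels and blood-derived cells are mixed in it. Amplified RNA of both fractions was hybridised together on 3 arrays of 2 colours, and each value is a log2 ratio, likely of GFP+ over GFP- because no source used here states the dyes. A ratio above 0 means more signal in GFP+ cells under that direction. Fewer cells of a type and less RNA per cell cannot be told apart in such a ratio.

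Most cathepsins are made as inactive precursors, carry a mannose 6-phosphate tag to the lysosome and become active in its acid interior, where cystatins and related proteins can block them if they leak out. Some, such as Ctsb and Ctsl, are made by most cells. Others are typical of leukocytes: Ctss cuts the invariant chain during antigen presentation, and Ctsc, a dipeptidyl peptidase, activates the serine proteases of immune cell granules. All 6 measured members belong to the papain family of cysteine proteases. In the kidney, macrophages settle in the interstitium between the tubules during development.

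The members were placed in classes for this comparison. The class of most cell types had 8 cathepsins on the array, and Ctsb, Ctsf, Ctsh and Ctsl of it were measured, whereas Ctsa, Ctsd, Ctso and Ctsz were not. The leukocyte class had 5, and Ctsc and Ctss were measured, whereas Ctse, Ctsg and Ctsw were not. Ctsk, known from osteoclasts, and the placental Ctsj, Ctsm, Ctsq and Ctsr had no value.

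Promoters of 14 of the 18 cathepsin genes were found among RefSeq promoters of build GRCm38.p6, each reaching from 250 bases before to 50 bases after the start of the gene. Those of Ctsb, Ctse, Ctsh and Ctsw were not used here. Promoters are shown because the measured leukocyte cathepsins share a string there. Of the measured cathepsins of most cell types, only Ctsf and Ctsl had a promoter to compare. With 7 strings searched on either strand, GAGGAAGT, a form of the site of the myeloid factor PU.1, was in the promoters of Ctsc and Ctss and of no other of these 14, against 3.2% of 32851 promoters of the same length. Its shorter form AGGAAGT, which overlaps it, was in 6 cathepsin promoters and 9.35% of all. These were Ctsc, Ctsg and Ctss, the placental Ctsj and Ctsq, and Ctso of most cell types, so it was not confined to leukocyte cathepsins. The string CACGTG, an E-box, was in the promoters of Ctsa, Ctsd, Ctsf and Ctsl and in 7.15% of all. Its longer forms TCACGTG, GTCACGTG and TCACGTGA, which resemble the lysosomal gene element bound by Tfeb, were in those of Ctsa and Ctsd and in 3.77%, 2.25% and 0.974% of all. GGGCGG, a GC box, was in 7 cathepsin promoters and 35.7% of all. A match describes letters and is not a measured binding site. Below, capitals mark the reverse complement of GAGGAAGT in the windows of Ctsc (chr7:88277835-88278134, plus strand) and Ctss (chr3:95526536-95526835, plus strand), and CACGTG in stretches of 60 bases of Ctsf (chr19:4855059-4855118, plus strand) and Ctsl (chr13:64370711-64370770, minus strand). Counted from the gene's start, the marked string began at position -151 in Ctsc and at -2 in Ctss, where it lay across the start.
Ctsc: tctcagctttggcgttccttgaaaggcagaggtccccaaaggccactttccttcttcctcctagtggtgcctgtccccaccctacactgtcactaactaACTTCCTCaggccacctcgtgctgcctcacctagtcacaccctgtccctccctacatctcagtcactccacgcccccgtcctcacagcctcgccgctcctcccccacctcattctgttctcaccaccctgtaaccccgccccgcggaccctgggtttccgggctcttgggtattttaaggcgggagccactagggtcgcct
Ctss: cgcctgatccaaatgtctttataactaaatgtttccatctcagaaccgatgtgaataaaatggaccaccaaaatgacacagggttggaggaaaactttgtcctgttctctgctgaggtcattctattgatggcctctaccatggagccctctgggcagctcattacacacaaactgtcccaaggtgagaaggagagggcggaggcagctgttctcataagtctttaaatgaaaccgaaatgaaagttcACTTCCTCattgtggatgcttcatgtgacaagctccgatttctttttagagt
Ctsf: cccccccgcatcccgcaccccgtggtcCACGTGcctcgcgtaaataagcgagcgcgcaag
Ctsl: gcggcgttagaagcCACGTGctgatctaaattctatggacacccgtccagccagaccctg

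The arrays did not agree equally well. Over the 4399 tested probes, which are not independent, Pearson's r was 0.879 between arrays 2 and 3, but 0.076 between arrays 1 and 2 and 0.274 between arrays 1 and 3, so array 1 stood apart. Signs were mixed over the 3 arrays for 64.0% of probes. List medians kept their direction on every array for all marker lists but proximal tubule, whose medians were 0.28, -0.24 and -0.16. They were 1.74, 2.09 and 2.21 for ureteric epithelium and -1.95, -1.98 and -2.02 for macrophages and leukocytes. Of 7 measured ureteric epithelium markers, 5 rose in GFP+ cells (list median of mean log2 ratios 2.03), while 6 of 7 macrophage and leukocyte markers (median -1.96), 5 of 6 stroma markers (-1.77), 3 of 6 cap mesenchyme markers (-1.19) and 3 of 4 erythroid probes (-2.01) fell by limma at an adjusted p below 0.05. Of the 7 endothelial (median -0.31) and 4 proximal tubule probes (0.16), 0 passed, with 2 and 1 at an unadjusted p below 0.05. Of all 4399 tested probes, 633 had such a p. Among endothelial genes that entered no test, array 3 gave -1.28 for Cdh5, -1.46 for Pecam1 and -0.06 for Sox17. Array 2 held only Cdh5 of these, at -2.08. The result for endothelium thus covers the tested probes alone. Grhl2, an epithelial transcription factor of the ureteric list, had -0.37, -0.27 and 0.12, whereas the other tested members of that list had means above 0. Of its untested members, Cldn4 had -0.66 and 1.78 on arrays 2 and 3, and Wnt7b had -0.61 on array 2 alone. The median over all tested probes was 0.044.

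No cathepsin passed the threshold. By limma with Benjamini-Hochberg adjustment over all 4399 probes, 0 of 6 were called, where 2.86% of all probes were called (1.32% higher and 1.55% lower in GFP+ cells). The smallest mean that passed anywhere on the array was 0.89 in size, larger than that of any cathepsin. At an unadjusted p below 0.05, Ctsc and Ctss were lower, 2 of the 6, where 6.09% of all probes were lower by that rule. The 6 means ran from -0.75 to 0.27.

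Ctsc, the granule-protease activator, had log2 ratios of -0.83, -0.23 and -0.86 on arrays 1, 2 and 3. All 3 were below 0, and array 2 was the closest to it. The mean was -0.64 ± 0.36 (SD, n = 3 arrays), or 1.56-fold less signal in GFP+ cells, with a 95% interval of -1.11 to -0.17 and a limma adjusted p of 0.208. It ranked 189th from the lowest of all tested probes.

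Ctss, the cathepsin of antigen-presenting cells, had log2 ratios of -0.91, -0.14 and -0.52. Again all 3 were below 0, with array 2 closest to it. The mean was -0.52 ± 0.38 (n = 3), or 1.44-fold less signal in GFP+ cells, with a 95% interval of -1.0 to -0.04 and a limma adjusted p of 0.306. Without array 1 the mean was -0.33 (adjusted p = 0.0762). Values below 0 on all 3 arrays were found for 14.8% of all tested probes. Within arrays, Ctss minus Ctsc was -0.08, 0.09 and 0.34, so these cathepsins did not differ beyond their spread.

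Ctsb, a cysteine protease that cuts both within proteins and at their carboxyl ends, had log2 ratios of 0.19, -0.97 and -1.46. Array 1 lay above 0 and arrays 2 and 3 well below it. The mean of -0.75 ± 0.85 (n = 3) was the lowest of the 6, but its SD was the largest, the 95% interval of -1.53 to 0.03 included 0, and the limma adjusted p was 0.371. Without array 1 the mean was -1.22 and passed (limma adjusted p = 0.00511), in a setting where 46.3% of all probes passed. Without array 3 it was -0.39 (adjusted p = 1.0), without array 2 it was -0.64 (0.525), and with arrays 2 and 3 averaged it was -0.51 (0.999).

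The other members of the class of most cell types stayed near 0. Ctsl, an endopeptidase, had log2 ratios of -0.17, -0.07 and 0.10 and a mean of -0.05 ± 0.13 (95% interval -0.43 to 0.34, limma adjusted p = 0.899). Ctsh, mainly an aminopeptidase, had -0.04, 0.35 and -0.01 and a mean of 0.10 ± 0.22 (-0.31 to 0.51, adjusted p = 0.806). The sign of each of these differed between arrays. Ctsf, a papain-family member with a long propeptide, had 0.02, 0.43 and 0.34, all above 0, and a mean of 0.27 ± 0.22 (-0.14 to 0.67, adjusted p = 0.535). These intervals leave room for a difference of up to 0.43 below 0 and 0.67 above it.

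**Figure D1:**
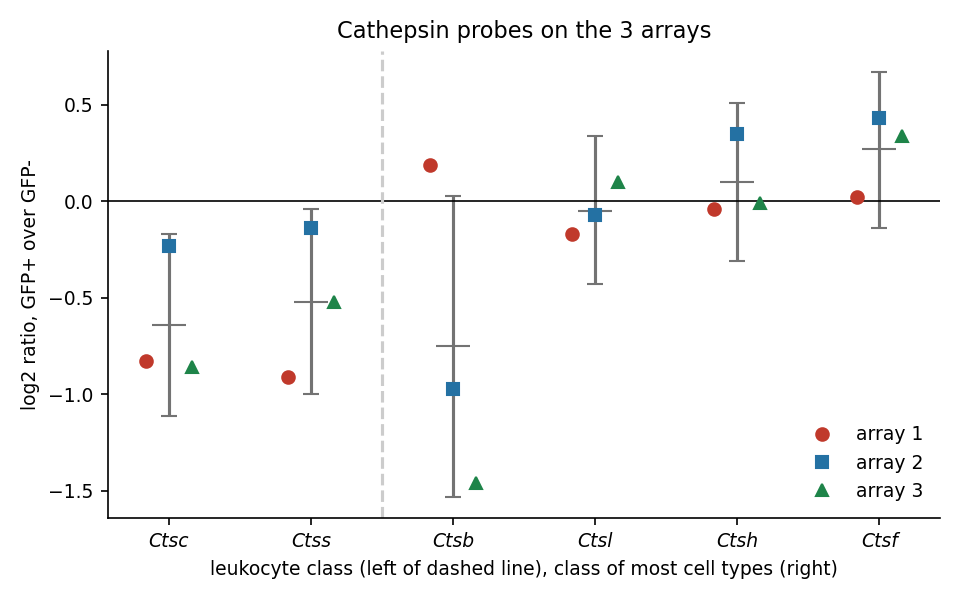
Log2 ratios (GFP+ over GFP-, vertical axis) of the 6 measured cathepsins, with 1 point per array, a grey dash at the mean and a grey bar for the 95% limma interval. Ctsc and Ctss lie below 0 on all 3 arrays, while Ctsb lies at 0.19 on array 1 and at -0.97 and -1.46 on arrays 2 and 3.

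Ordered by mean log2 ratio, the cathepsins ran Ctsb, Ctsc, Ctss, Ctsl, Ctsh and Ctsf. Differences within arrays describe that order. They cannot test it, because the order came from the means of the same 3 arrays. Of 5 pairs of neighbours, 2 had the same sign on all 3 arrays. Ctsl exceeded Ctss by 0.74, 0.07 and 0.61, a mean of 0.47 ± 0.35, and Ctsf exceeded Ctsh by 0.06, 0.08 and 0.36, a mean of 0.17 ± 0.17. The place of Ctsb turned with the array, since Ctsc minus Ctsb was -1.02 on array 1 against 0.74 and 0.60 on arrays 2 and 3. Over all 15 pairs, 8 kept their sign on the 3 arrays. They included each of Ctsl, Ctsh and Ctsf above each of Ctsc and Ctss, by means between 0.47 and 0.90. The exact two-sided sign-flip permutation test gave p = 0.25 for these 8 pairs, the smallest that 3 arrays allow, so no pair could pass.

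By class, the median log2 ratio of the leukocyte cathepsins was -0.87, -0.19 and -0.69 on arrays 1, 2 and 3, against -0.01, 0.14 and 0.04 for the class of most cell types. The leukocyte median was the more negative on each array. The difference within arrays was -0.86, -0.33 and -0.73, a mean of -0.64 ± 0.28. With 2 and 4 measured members, this is a description of these probes. Ctsh is also made by macrophages, and with Ctsh counted as a leukocyte cathepsin the difference was -0.85, -0.07 and -0.61.

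The leukocyte cathepsins were set beside markers of macrophages and leukocytes. The 7 measured markers spanned -4.16 to -1.39 on array 1, -3.44 to -0.82 on array 2 and -3.37 to -1.06 on array 3. Ctsc and Ctss each lay above all 7 on every array, as did 91.1% of all 4399 tested probes, so this position is shared with most of the array and is not a result about the cathepsins. Averaged over arrays, Ctss exceeded the markers by between 0.76 and 3.13 and Ctsc by between 0.64 and 3.02. The nearest marker by mean was Tyrobp, the DAP12 signalling adaptor, which Ctss exceeded by 1.05, 0.68 and 0.54. C1qa, a complement subunit made by macrophages, had -1.39, -1.62 and -1.68, and Ctss exceeded it by a mean of 1.04 ± 0.50. Ctsb lay above 6 of the 7 markers on every array, Tyrobp being the exception on arrays 2 and 3. Each of the 14 comparisons of Ctsc and Ctss with a marker had an exact two-sided sign-flip p of 0.25, the smallest possible. List medians of stroma, cap mesenchyme and erythroid markers were below 0 in the same ratios, with values given above. Osr1 of the cap mesenchyme list went the other way by mean, with -0.14, 0.41 and 0.25 (mean 0.17). The part of any single cell type in the cathepsin ratios was not tested.

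**Figure D2:**
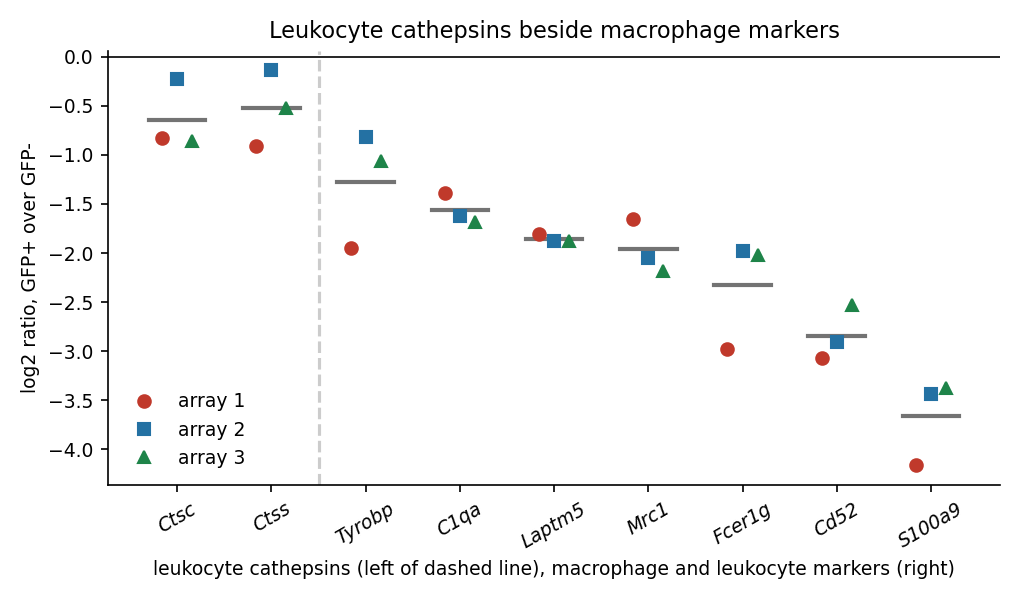
Log2 ratios (GFP+ over GFP-, vertical axis) of Ctsc and Ctss left of the dashed line and of 7 macrophage and leukocyte markers right of it, with 1 point per array and a grey line at the mean. Both cathepsins lie above all 7 markers on each array, with Tyrobp the nearest by mean.

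Beyond the cathepsins, 7 lists covered the proteins around them: their inhibitors, other lysosomal proteases, sorting to lysosomes, other lysosomal hydrolases, lysosomal membrane proteins, the proton pump and antigen presentation on MHC class II. Of 132 listed genes, 38 probes were tested, and 2 fell and 0 rose, where 1.55% of all tested probes were lower and 1.32% higher. Signs were mixed over the arrays for 25 of the 38 (65.8%), against 64.0% of all tested probes. The share of mixed signs lay near that of all probes. The fallen 2 of 38 were a larger share than 1.55%, but this rests on 2 probes. Their median of mean log2 ratios was -0.04, with 18 means above 0 and 20 below. The fallen probes were those of Tpp1 and Laptm5.

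Tpp1, a lysosomal protease that removes tripeptides from protein ends, had log2 ratios of -2.04, -0.97 and -1.24. All 3 were below 0, with array 1 the lowest. Its mean was -1.42 ± 0.56 (n = 3), 2.67-fold lower in GFP+ cells (limma adjusted p = 0.0391). The other 3 measured lysosomal proteases did not pass. Lgmn, the asparaginyl endopeptidase that processes several cathepsins, had -1.04, -0.24 and -0.46 and a mean of -0.58 ± 0.42 (adjusted p = 0.28). Like Ctsc and Ctss, Lgmn was below 0 on every array, as were 14.8% of all tested probes, and closest to 0 on array 2. Array 2 was also closest to 0 for Tpp1, for the macrophage marker Tyrobp (-1.95, -0.82 and -1.06) and for the stroma marker Vim (-1.45, -0.61 and -0.81). The pattern was thus not particular to these proteases. Dpp7, a dipeptidyl peptidase, averaged -0.20 ± 0.40, and Ggh, which trims folate polyglutamates, 0.27 ± 0.07.

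Of 16 listed cathepsin inhibitors, only Cstb, the cytosolic inhibitor stefin B, had a value on all 3 arrays. Its log2 ratios were 0.16, 1.15 and 0.79, opposite in sign to those of Ctsc and Ctss. Array 1 was close to 0. The mean was 0.70 ± 0.50 (95% interval 0.15 to 1.25), and it missed the threshold (limma adjusted p = 0.237). Cst3, the main secreted cystatin, had no value.

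Among sorting proteins, 0 of 3 tested probes passed. M6pr, a receptor that carries tagged enzymes to lysosomes, had log2 ratios of 0.84, -0.67 and -0.78, so its sign on array 1 was opposite to that on the other arrays, as it was for Ctsb. Ap1m1, a clathrin adaptor subunit, had 0.10, -0.74 and -0.84 (mean -0.50 ± 0.52, limma adjusted p = 0.413), and Vps29, a retromer subunit, averaged 0.23. Igf2r, the other mannose 6-phosphate receptor, had no value.

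Other lysosomal hydrolases and their activators stayed close to 0, with 0 of 14 passing, a median of 0.08 and mixed signs for 12. Psap, the precursor of the saposins that help degrade sphingolipids, was the lowest. It had -0.43, -0.72 and -0.81, a mean of -0.65 ± 0.20 with every array below 0 (limma adjusted p = 0.137). Npc2, a cholesterol carrier, averaged -0.27 ± 0.59 and Neu1, a sialidase, 0.26 ± 0.29. The list had 1 probe at an unadjusted p below 0.05, that of Psap, where 6.09% of all tested probes were lower by that rule.

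In the lysosomal membrane list 1 of 7 probes fell, that of Laptm5, which is a protein of haematopoietic cells and also stands in the macrophage list. Its log2 ratios were -1.81, -1.88 and -1.88, nearly the same on each array, with a mean of -1.86 ± 0.04 (limma adjusted p = 0.00434). Scarb2, the receptor that sorts glucocerebrosidase, averaged -0.37 ± 0.07 and Abca2, a transporter, 0.37 ± 0.25. Lamp1, the major membrane glycoprotein of lysosomes in most cells, had -0.85, 0.10 and -0.29 (adjusted p = 0.535). Ifi30, a thiol reductase of antigen-presenting cells and the only tested member of the MHC class II list, had 0.24, -1.54 and -0.83 (adjusted p = 0.421).

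The proton pump had 0 of 8 probes past the threshold and a median of 0.07. Atp6v0e, a membrane subunit, had log2 ratios of 0.11, 0.95 and 0.74 (mean 0.60 ± 0.44, limma adjusted p = 0.276). Atp6v1h, a regulatory subunit, had 0.12, 0.66 and 0.53 (mean 0.44 ± 0.28, 0.343). Both were above 0 on all 3 arrays and at an unadjusted p below 0.05. Of all 4399 tested probes, 633 had such a p in either direction, and 36.0% had the same sign on all 3 arrays. Atp6v1g1, a stalk subunit, averaged -0.18 ± 0.17.

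**Figure D3:**
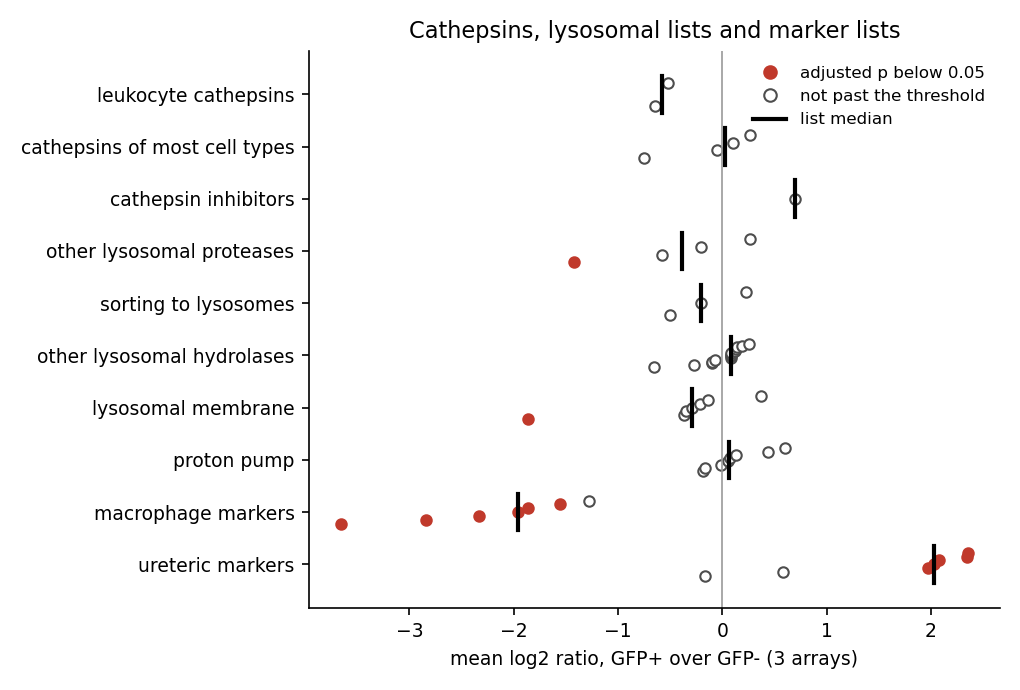
Mean log2 ratio over 3 arrays (GFP+ over GFP-, horizontal axis) of each probe of the cathepsin classes, the lysosomal lists and 2 marker lists, with filled points past the threshold and a black bar at each list's median. The 2 filled points among lysosomal lists are Tpp1 and Laptm5, and the means of the hydrolase and proton pump lists lie around 0.

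The contrast between array 1 and the other arrays was wide for Ctsb. Array 1 exceeded the mean of arrays 2 and 3 by 1.41 on the log2 scale, the 236th largest gap in either direction of 4399. In the same pattern, with array 1 above 0 and arrays 2 and 3 below, were 841 probes (19.1%), and 1375 (31.3%) had the reverse. Among lysosomal genes, M6pr (gap 1.57), the tetraspanin Cd63 (1.45) and Ifi30 (1.43) had gaps close to that of Ctsb. Of the cathepsin and lysosomal probes together, 8 had array 1 alone above 0 and 11 had array 1 alone below 0, so the reverse of the Ctsb pattern was the more frequent, as over all probes. Ctsc and Ctss had gaps of -0.28 and -0.58, and for Ctsl, Ctsh and Ctsf gaps lay between -0.37 and -0.18.

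**Figure D4:**
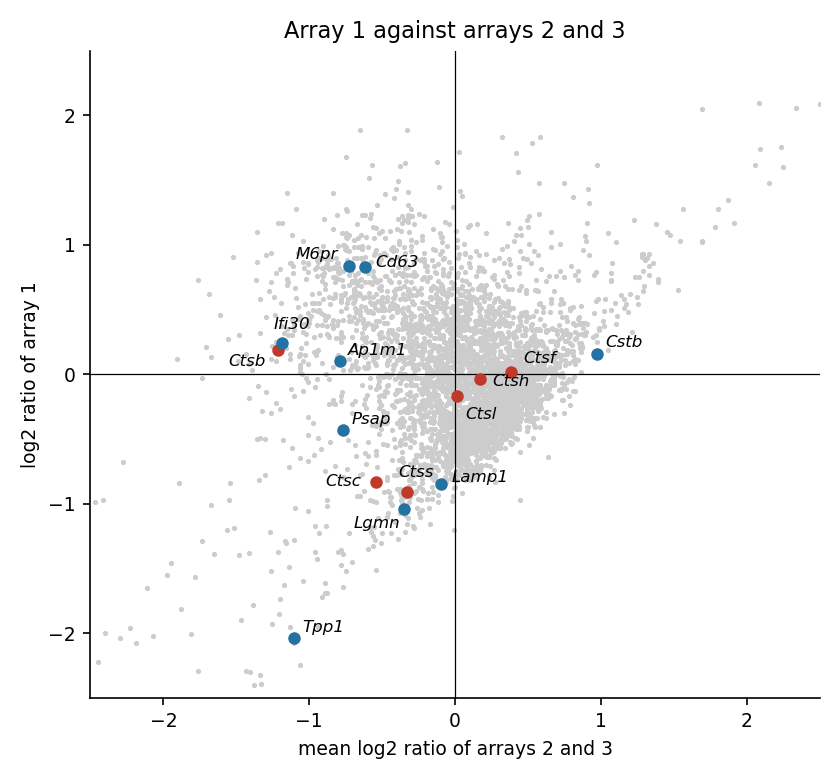
Log2 ratio on array 1 (vertical axis) against the mean log2 ratio of arrays 2 and 3 (horizontal axis), with 1 grey point per tested probe, cathepsins in red and named lysosomal genes in blue; 15 probes lie beyond the axis limits of 2.5. Ctsb, M6pr, Cd63, Ifi30 and Ap1m1 lie in the upper left, whereas Ctsc, Ctss, Lgmn, Psap and Tpp1 lie in the lower left.

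Without array 1, 3 of 6 cathepsins passed in limma, Ctsb and Ctsc lower (adjusted p = 0.00511 and 0.0463) and Ctsf higher (0.0255), but 46.3% of all 4399 probes passed in that setting. With array weights, which gave array 1 a weight of 0.142 against 1.38 and 5.1 for arrays 2 and 3, 4 of 6 passed, Ctss being added, where 59.4% of all probes did. The cathepsins' shares in these settings lay near those of all probes.

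Probes nearest to a cathepsin over the 3 arrays, by root mean square distance of log2 ratios, were looked up for Ctsb, Ctsc and Ctss after their values were seen. For Ctsb they were the immediate early gene Fos (0.119), the mitochondrial peptidase Pitrm1 (0.135) and the BMP receptor Bmpr2 (0.171). For Ctsc they were the cartilage collagen Col2a1 and the sulfotransferase Chst2 (0.145 each) and Psg28 (0.169). For Ctss they were the kinase Map2k4 (0.049), the phospholipase Pla2g4a and the glycosyltransferase Ext1 (0.070 each). With 3 arrays, such nearness says only that the ratios were alike.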

How the data were processed

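RNA of GFP+ cells (channel 1) and GFP- cells (channel 2) was read on 3 arrays of the Mouse Compugen design, without a dye swap or a common reference, per the labels. Images were read with Imagene 5.5, and a Lowess curve with 20% of the data per local fit adjusted the control channel, with a floor of 10 in that channel, as the labels' protocols state. The labels call the values filtered and do not state the filter. Log2 was found as the scale of the ratios the authors deposited: 2 raised to the value was a whole number of thousandths, within 0.01 of a thousandth, for 99.97% of values, against 2.37% for base e. Signal over background was not analysed here.

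Of 22702 features, 883 controls and blanks were left out. Arrays 1, 2 and 3 held 5179, 4980 and 6187 values with medians of -0.044, 0.094 and 0.062. Genes came from the platform annotation, with 16656 features of 1 symbol, 137 of several and the rest of none, and 15970 symbols were updated through gene identifiers to GRCm38.p6 of RefSeq. Each tested probe's mean was compared with 0 by limma 3.58.1 in R 4.3.3 (lmFit, eBayes, two-sided). Benjamini-Hochberg adjustment covered 4399 probes, with a threshold of 0.05. The same call was run on simulated data whose errors were independent and of equal spread across arrays. The 3 real arrays did not agree equally well, so that run does not show how the call behaves on them. Errors are SDs over arrays. The labels do not say whether arrays came from separate embryo pools, so a p-value covers the spread among the 3 arrays alone, which may be technical, and their number limits the precision.

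Members and lists were chosen with earlier results of these data known. Named are all cathepsins on the array, members of each lysosomal list past the threshold or among its 3 largest means, and genes fixed by name (Cst3, Cstb, Lgmn, Lamp1, Igf2r, M6pr, Psap and others); by this rule nearest probes are named only for cathepsins past the threshold, of which there were none. Cd63, Osr1, Grhl2, C1qa, Tyrobp, Vim, the probes nearest to a cathepsin and genes measured on fewer arrays were named after their values were seen. Array weights used limma's gene-by-gene method, chosen after the default method did not converge. Alternatives were centring, scaling, array weights, an ordinary statistic, genes in place of probes, values on at least 2 arrays, leaving out each array, and averaging arrays 2 and 3.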

Additional observations from a re-analysis of the deposited data

How the results depend on the processing

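The count of all probes past the threshold shifted most with array weights, without array 1 and with an ordinary statistic. The 126 probes past the threshold became 2612 with array weights and 1 with an ordinary one-sample statistic (532 at an unadjusted p below 0.05), and 83 to 2035 when each array was left out, highest without array 1 and lowest without array 3. The 0 cathepsins past the threshold became 4 with array weights and 0 to 3 with each array left out, and stayed at 0 in the other settings. The 2 lysosomal probes became 20 with array weights, 0 with the ordinary statistic (6 at an unadjusted p below 0.05) and 2 to 16 with each array left out, 16 without array 1. Tpp1 and Laptm5 had adjusted p of 0.406 and 0.0933 by the ordinary statistic and passed in all other settings. With each array left out, Ctsb lay between -1.22 and -0.39, Ctsc between -0.84 and -0.53, Ctss between -0.71 and -0.33 and Ctsf between 0.18 and 0.39. Of 60 values of single cathepsins over the alternatives, 50 kept sign and side of the threshold, 7 passed and 3 changed sign: Ctsl was 0.056 with array weights and between -0.12 and 0.013 with each array left out, and Ctsh between -0.027 and 0.17. M6pr was 0.059 with arrays 2 and 3 averaged and between -0.73 and 0.085 with each array left out. The class difference lay between -0.79 and -0.53 with each array left out, and was -0.51 with Ctsh moved and -0.72 without Ctsb, an alternative chosen after seeing the data. The cause of these shifts was not tested. No paired analysis was possible because the arrays form 1 group of ratios.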

Other observations

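Several macrophage and lysosomal genes of the lists had values on 1 or 2 arrays and entered no test. Fcgr3, an Fc receptor of macrophages and neutrophils, had log2 ratios of -4.46 and -3.24 on arrays 2 and 3, and Aif1, a macrophage calcium-binding protein, -1.35 and -0.80 on arrays 1 and 2. Cd68, the macrophage relative of Lamp1, had -1.69 on array 3 alone. On that array alone, Ptprc and S100a8 of the macrophage and leukocyte list had -0.89 and -2.3. These genes were below 0 wherever they had a value, unlike Lyz2 of the same list. H2-DMa of the MHC class II list had -0.64 on array 3 alone. Lyz2, the lysozyme of myeloid cells, had 0.31 on array 3. Lamp2, a lysosomal membrane protein of most cells, had 0.33 on that array, and the lysosomal lipase Lipa had 0.21 and 0.44 on arrays 1 and 3. Sort1, a sorting receptor, had -0.38 on array 1 and 0.70 on array 2, and Arsa, a sulfatase, -0.37 and 0.24. A second Psap probe had -0.43 on array 1 alone, equal to the tested Psap probe there.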
